A study of Mus musculus with 6 samples.

Results

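The genes for the proteins of the cytoplasmic ribosome were followed in whole mouse embryos in which both histone H3.3 genes were targeted and in their controls. Members were taken by symbol: Rpl or Rps with a number and at most a closing a, x or y, together with Rpsa, Rplp0, Rplp1 and Rplp2. This gave 76 of the 23366 genes in the files, 30 of the small subunit and 46 of the large subunit. The symbol rule itself used no measured value, though members were chosen with earlier results of these data known. RNA-seq of polyadenylated RNA covered 3 knockout (KO) and 3 control embryos at stage E10.5. In KO embryos each of H3f3a and H3f3b, the 2 genes for H3.3, had 1 floxed and 1 null allele, and in control embryos 1 floxed and 1 wild-type allele. All 6 embryos carried the Sox2-Cre transgene, which is active in the epiblast, were Trp53-/- and had a mixed C57BL/6, CD1 and 129 background. Controls can thus lose their floxed alleles too, and they also lack p53. The labels do not state litters, sex or pooling, so the tests speak only to the spread among these 6 libraries, which may be technical in part.

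A cytoplasmic ribosome joins ribosomal RNA with a protein of each kind, so cells need the ribosomal proteins in near equal numbers. Their messages are among the most abundant in growing tissue. Most start with a C followed by a run of pyrimidines, the terminal oligopyrimidine (TOP) motif, through which mTOR signalling sets how strongly they are translated. Free Rpl5 and Rpl11 bind Mdm2 together with the 5S rRNA and stabilise p53, and in mice and humans the loss of a copy of several members slows growth and red cell formation, in part through p53. All embryos here lack p53.

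Gene starts of some members named in the results are shown for their pyrimidine runs. They come from RefSeq promoters on build GRCm38.p6, which the counts do not use (mm9). The choice favours starts with CTTTC or CTTTT, whose share among members is given below. Each line holds 15 bases before and 15 bases from the annotated start, with CTTTC or CTTTT in capitals.
Rps6, chr4:86857353-86857382, minus strand: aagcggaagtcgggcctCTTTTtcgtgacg
Rpl27a, chr7:109519180-109519209, plus strand: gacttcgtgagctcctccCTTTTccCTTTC
Rplp2, chr7:141447636-141447665, plus strand: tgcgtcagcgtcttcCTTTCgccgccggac
Rpl28, chr7:4792950-4792979, plus strand: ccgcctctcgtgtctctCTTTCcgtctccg
Rpl38, chr11:114668565-114668594, plus strand: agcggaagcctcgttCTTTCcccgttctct
Rpsa, chr9:120127751-120127780, plus strand: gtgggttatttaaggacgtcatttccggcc
Rpl10, chrX:74270801-74270830, plus strand: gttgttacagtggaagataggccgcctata

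Of 56 members with a promoter in that table, 22 (39.3%) held CTTTC or CTTTT on the gene's strand within 25 bases of a listed start. The share over all 27025 genes of the table was 13.2%. CCGGAAGT, a core that ETS factors bind, was found on either strand of the 300-base promoters in 11 of 56 members (19.6%), against 4.3% of all genes. AAGATGG, a core bound by YY1, was found on either strand in 9 members (16.1%), against 7.3%, and TATAAA on the gene's strand in 5 members (8.9%), against 9.8%. CTTTC can share bases with CTTTT, with CCGGAAGT and with the reverse complement of AAGATGG. A match is letters only, not a bound site.

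The libraries held 24952853 to 27871038 counts in genes in KO embryos and 27775576 to 30461689 in controls. Levels are given as CPM, counts scaled to the effective library size. H3f3a had 70.0, 64.4 and 68.5 CPM in KO embryos, against 338, 366 and 342 CPM in controls, lower in every KO embryo. H3f3b had 469, 503 and 392 CPM in KO embryos, against 676, 727 and 669 CPM in controls. Its log2 fold change was -0.60 (edgeR adjusted p = 0.0257), and this call was lost without KO 3 and without any 1 of the controls, at adjusted p-values between 0.0617 and 0.140. Macrophage markers fell, with 15 of 17 tested called lower by edgeR, against 0.955% of all tested genes. Summed levels of the 17 were 7.17 to 7.55 CPM in KO embryos, against 77.1 to 92.4 CPM in controls. All 28 markers of embryonic tissues were expressed at a level that could be tested. Reads outside genes, the no_feature row, took 18.3%, 10.6% and 18.0% of all rows in KO 1, 2 and 3, against 9.79%, 10.7% and 13.1% in control 1, 2 and 3. KO 1 and KO 3 thus stood apart from all controls and from KO 2. As a share of uniquely aligned reads, KO minus control was 5.19 percentage points (two-sided exact permutation p = 0.3, n = 3 each, where 0.1 is the smallest possible).

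As a whole, the ribosomal protein genes did not differ by group beyond the spread between embryos, and that spread was wide. Their summed level was 40286, 62052 and 45302 CPM in KO 1, 2 and 3, against 49863, 57010 and 44078 CPM in control 1, 2 and 3. KO 2 was the highest embryo and KO 1 the lowest, with all controls between them. The highest KO embryo was 1.54 times the lowest, and the highest control 1.29 times the lowest. The mean was 49213 ± 11400 CPM in KO embryos and 50317 ± 6478 CPM in controls (SD, n = 3 each), a mean log2 difference of -0.05 (two-sided exact permutation p = 0.8, smallest possible 0.1). As a share of gene counts without scaling, the family took 4.19%, 6.05% and 4.74% in KO embryos, against 4.77%, 5.51% and 4.49% in controls.

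**Figure D1:**
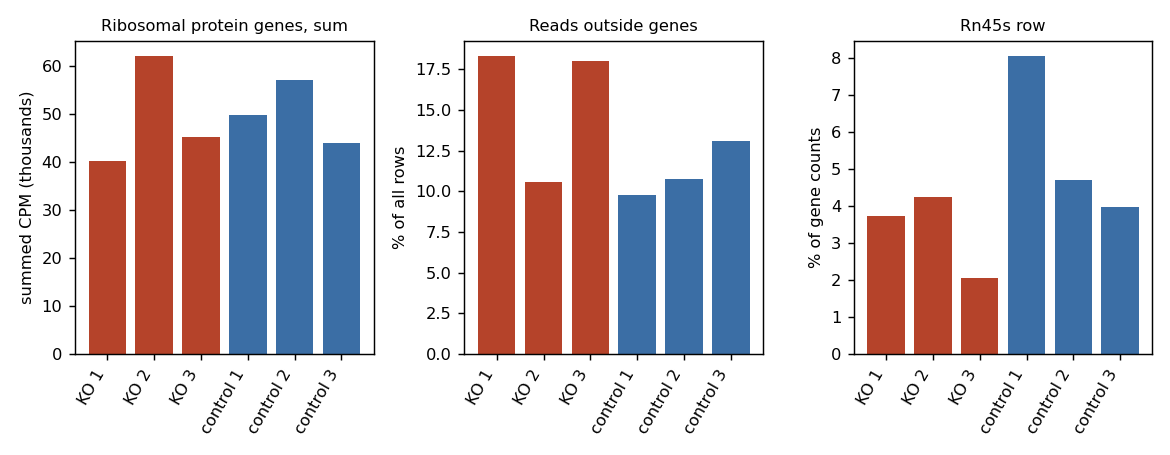
Bars give, for each KO embryo (red) and each control embryo (blue), the summed level of the ribosomal protein genes in units of 1000 CPM, the reads outside genes as % of all rows, and the Rn45s row as % of gene counts. The ribosomal protein sum runs between 40286 and 62052 CPM in KO embryos and between 44078 and 57010 CPM in controls, and reads outside genes are 18.3% and 18.0% in KO 1 and KO 3.

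In bulk RNA a shift of a family cannot be split into less RNA per cell and fewer cells that make it. Other readouts of the libraries ran beside these sums. The Rn45s row, named for the precursor of ribosomal RNA, held 3.73%, 4.24% and 2.06% of gene counts in KO embryos, against 8.05%, 4.71% and 3.98% in controls. Its counts lay close to those of the small subunit rRNA repeat, at 575067 against 587142 in KO 3 and 2453449 against 2519213 in control 1. The row thus does not tell precursor from mature rRNA. Reads that aligned to more than 1 place, which no gene row counts, were 20.9%, 18.2% and 20.3% of all rows in KO embryos, against 22.6%, 22.1% and 21.4% in controls. The groups did not overlap on this last share (two-sided exact permutation p = 0.1, the smallest possible). It may bear on this family, since 75 of its 76 members share at least 1 stretch of 50 bases with a transcript of another annotated gene. That share was not taken over all genes, so it is not shown to be particular to the family. Of 23 erythroid markers in the files 19 were tested. These 19 summed to 9871, 6153 and 8989 CPM in KO embryos and to 8207, 10090 and 10440 CPM in controls, with KO 2 the lowest embryo. None of the 19 was at 0 in any embryo, and edgeR called 0, against 1.51% of all tested genes, with 2 at an unadjusted p under 0.05, against 19.2%. The part of these readouts in the ribosomal protein levels was not tested.

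No ribosomal protein gene was called between the groups. Of the 75 members that passed the low-count filter, 0 were called by the quasi-likelihood test of edgeR at an adjusted p under 0.05, against 1.51% of all 15075 tested genes (0.551% higher and 0.955% lower), and 0 had an unadjusted p under 0.05, against 19.2%. DESeq2 and limma-voom also called 0 members, against 5.17% and 1.29% of all genes, and with either tool 0 reached an unadjusted p under 0.05, against 18.0% with DESeq2 and 18.5% with limma-voom. The smallest adjusted p of a member was 0.404. Folds were above 0 for 31 members and below 0 for 44, with a median log2 fold change of -0.02, beside -0.0010 over all tested genes. The sign of that median is not fixed by the data, since it was 0.03 when library totals replaced TMM scaling. The median was -0.03 over the 30 small subunit members and -0.0022 over the 45 tested large subunit members. The 72 members that averaged 100 CPM or more had log2 fold changes between -0.24 and 0.10. Their standard errors (SE) ran between 0.132 and 0.210. The median SE over the 75 tested members was 0.167, beside 0.121 over all tested genes.

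What members shared was the order of the embryos. Among the 72 members of at least 100 CPM, KO 2 was above KO 3 and KO 3 above KO 1 in 72, while 34.6% of the other 2300 tested genes at this level had that order. Control 2 was above control 1 and control 1 above control 3 in 71 of the 72, against 38.2% of the other genes. KO 2 was the highest of the 6 embryos in 65 members (90.3%), against 20.3% of the other genes, and KO 1 the lowest in 71 (98.6%), against 26.5%. KO 3 lay within the control range in 51 members and below every control in 21. Against the control mean, the median member was at -0.32, 0.33 and -0.13 on the log2 scale in KO 1, 2 and 3, and at 0.00, 0.19 and -0.19 in control 1, 2 and 3. These members share their libraries and scaling, so their number is no measure of replication.

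**Figure D2:**
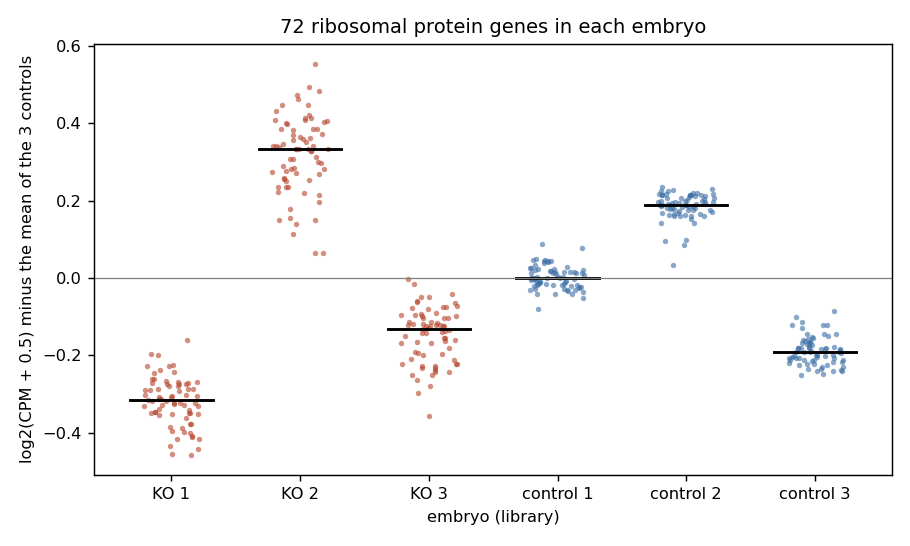
Each point is 1 of the 72 ribosomal protein genes that averaged 100 CPM or more, and the black line is their median; the vertical axis is log2(CPM + 0.5) minus the mean of the 3 controls. The cloud of a whole embryo moves up or down together, with medians of -0.32, 0.33 and -0.13 in KO 1, 2 and 3 (red) and 0.00, 0.19 and -0.19 in control 1, 2 and 3 (blue).

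Around those medians members differed little. The interquartile range over the 72 members was 0.077, 0.127 and 0.102 on the log2 scale in KO 1, 2 and 3, against 0.241, 0.197 and 0.251 for the other genes at this level. In the controls it was 0.037, 0.038 and 0.045, against 0.069, 0.148 and 0.132. Control values are narrower by construction, since each is set against a mean that includes it.

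In the stalk none of the 3 genes passed the test. Rplp0, Rplp1 and Rplp2 form the stalk that recruits translation factors to the ribosome. Rplp0 had 1348, 1943 and 1469 CPM in KO 1, 2 and 3, against 1616, 1917 and 1450 CPM in control 1, 2 and 3. Rplp1 had 561, 805 and 627 CPM in KO embryos, against 760, 894 and 673 CPM in controls. In both genes the groups overlapped, and KO 1 was the lowest embryo. The log2 fold change of Rplp1 was -0.22 ± 0.15 (SE), among the lowest in the family, with an edgeR adjusted p of 0.426. Rplp2 had 260, 436 and 298 CPM in KO embryos, against 369, 355 and 319 CPM in controls, with controls in another order than the rest of the family.

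Rpl5 and Rpl11, the partners of the 5S rRNA, showed no group difference beyond the spread. Rpl5 had 1018, 1585 and 1155 CPM in KO embryos, against 1223, 1425 and 1081 CPM in controls, a log2 fold change of 0.01 ± 0.17. Rpl11 had 595, 908 and 653 CPM in KO embryos, against 667, 787 and 603 CPM in controls, at 0.07 ± 0.16. Neither passed the test, with edgeR adjusted p-values of 0.978 for Rpl5 and 0.846 for Rpl11.

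Rpl10 joins the large subunit last and lies near its catalytic centre. It had 761, 1092 and 815 CPM in KO embryos, against 1053, 1192 and 904 CPM in controls. KO 1 and KO 3 were below every control and KO 2 was within their range. Its log2 fold change of -0.24 ± 0.15 was the lowest of the family, and its edgeR adjusted p of 0.404 the smallest. At the other end of the 72 members was Rpl23, which can also bind Mdm2, with 606, 1000 and 707 CPM in KO embryos against 709, 829 and 620 CPM in controls, at 0.10 ± 0.18. Rpl17, at the exit tunnel, was at 0.09 and Rpl9, near the stalk base, at 0.08. In Rpl23, Rpl17 and Rpl9 the groups overlapped.

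None of the large subunit members known from mouse mutants passed the test. Rpl38, which the Tail-short mouse lacks in part and which aids translation of Hox messages, had 197, 309 and 228 CPM in KO embryos, against 249, 296 and 215 CPM in controls, at a log2 fold change of -0.05 ± 0.17. Rpl24, mutated in the Belly spot and tail mouse, was at -0.04 and Rpl27a, mutated in Sooty foot ataxia, at -0.03. Rpl22, needed by developing T cells in mice, was at 0.04. Rpl3, at the catalytic centre, was at -0.07, Rpl13a at 0.03 and Rpl41, the shortest of the proteins, at 0.02. The smallest edgeR adjusted p of these 7 genes was 0.841, that of Rpl3.

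In the small subunit, too, no member passed the test. Rpsa, also known as a laminin receptor, had 1369, 1983 and 1510 CPM in KO embryos, against 1759, 2034 and 1592 CPM in controls, at a log2 fold change of -0.15 ± 0.15 and an edgeR adjusted p of 0.609. Rps2 had 1473, 2078 and 1761 CPM in KO embryos, against 1714, 1976 and 1622 CPM in controls, and its log2 fold change was 0.00019 ± 0.14. Rps6, the target of S6 kinase, had 891, 1386 and 1030 CPM in KO embryos, against 1056, 1237 and 957 CPM in controls. In all 3 genes KO 1 was the lowest embryo and the groups overlapped. Rps29 and Rps12, among the small subunit members below 0 with the smallest p, were at -0.16 and -0.15, neither called.

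Rps19, the gene most often mutated in human Diamond-Blackfan anaemia, had 314, 493 and 364 CPM in KO embryos, against 410, 449 and 341 CPM in controls, at a log2 fold change of -0.04 ± 0.16. Rps7 and Rps26, also mutated in that disease, were at -0.04 and -0.0026. Rps20, mutated in dark-skinned mice as Rps19 is, was at -0.01, and Rps14, lost in the human 5q- syndrome, at 0.06. Rps3, which also acts in DNA repair, was at -0.03, Rps27a, made as a fusion with ubiquitin, at -0.04, and the X-linked Rps4x at -0.07. The smallest edgeR adjusted p of these 8 genes was 0.842, that of Rps4x.

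The family's median depended on single embryos, with its size moved most by leaving out KO 2. Without KO 2, 73 of 75 members had folds below 0, the median was -0.22, and 2 were called lower by edgeR, against 3.28% of all genes called lower in that fit. These were Rpl10 at -0.42 ± 0.11 (adjusted p = 0.041) and Rplp2 at -0.32 ± 0.09 (adjusted p = 0.0485). An unadjusted p under 0.05 was reached by 28 of the 75 members, against 29.5% of all genes. In that fit edgeR called 10.8% of all genes in either direction. Without KO 1 the median was 0.11, without KO 3 it was 0.04, and without control 1, 2 or 3 it was -0.02, 0.08 or -0.1, with 0 members called in each of these 5 fits. Over all genes, each of these 5 fits called far fewer than the 1663 called without KO 2, down to 60 without control 2. A count of 0 among 75 members thus says little about the family.

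Adding reads outside genes to the model as a covariate turned the sign over. All 75 folds were then above 0 with a median of 0.28, and 6 members were called higher by edgeR, against 2.9% of all genes called higher. An unadjusted p under 0.05 was reached by 54 members, against 20.6% of all genes. In either direction that fit called 4.96% of all genes. Among them were Rpl17 at 0.43 ± 0.10, Rps14 at 0.42, Rpl9 at 0.38, Rpl28 at 0.37 and Rpl31 at 0.36, with adjusted p-values between 0.0292 and 0.0491 for these 5. That fit leans on KO 2, the one KO embryo whose share lay within the range of the controls. The 3 embryos with the largest shares, KO 1, KO 3 and control 3, had the 3 lowest ribosomal protein sums. Among the other 3, control 1 had the smallest share and the lowest sum. Genotype and this share cannot be told apart in KO 1 and KO 3.

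**Figure D3:**
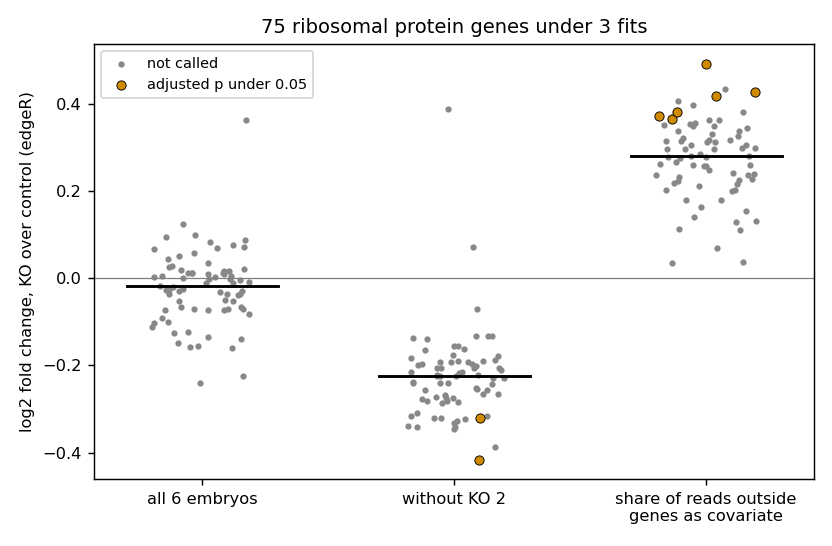
Each point is the edgeR log2 fold change, KO over control, of 1 of 75 tested ribosomal protein genes in the fit of all 6 embryos, without KO 2, and with reads outside genes as a covariate; black lines are medians and orange points have an adjusted p under 0.05. The median is -0.02, -0.22 and 0.28 in these fits, with 0, 2 and 6 genes called.

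Once the common movement was taken off, smaller differences between members were left. Relative to the median member of its embryo, Rpl10 was at -0.14, -0.27 and -0.23 on the log2 scale in KO 1, 2 and 3, against 0.01, 0.0030 and -0.01 in control 1, 2 and 3. Rplp1 was at -0.14, -0.27 and -0.17 in KO embryos, against -0.02, 0.02 and -0.0020 in controls. Rpl23 was at 0.08, 0.15 and 0.12 in KO embryos, against -0.01, 0.03 and -0.01 in controls. By KO minus control on this scale, Rpl10 and Rplp1 were the lowest of the 72 members, at -0.21 and -0.19, and Rpl23 the highest, at 0.12. In each of the 3 genes the groups were apart, KO 2 included, which their place at the extremes favours. The two-sided exact permutation p of Rpl10 was 0.1, the smallest possible and that of every member with groups apart.

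On this relative scale the groups did not overlap in 25 of 72 members (34.7%). All KO embryos were below every control in 15 members (20.8%), against 2.43% of all tested genes, and above every control in 10 (13.9%), against 3.28%. Many genes outside the family do not share its movement in full, so taking it off changes their spread in another way. The shares are thus not a like comparison. Before it was taken off, 1 of 75 members (1.33%) had groups apart, against 24.1% of tested genes. The members that were lower comprised 8 of 29 from the small subunit (among them Rps4x, Rps12, Rps21, Rps23, Rps25, Rps29 and Rpsa) and 7 of 43 from the large subunit (Rpl3, Rpl6, Rpl10, Rpl21, Rpl29, Rpl35 and Rplp1). Those that were higher comprised Rps6, Rps14 and Rps15 of the small subunit and Rpl5, Rpl9, Rpl11, Rpl17, Rpl22, Rpl23 and Rpl23a of the large. This scale was chosen after the values were seen. When library sizes were set to the family's own sum, edgeR called 0 members, against 0.876% of all genes. At an unadjusted p under 0.05 there were 0 members, against 6.16% of all genes. In that fit Rpl10 was at -0.20 ± 0.16, with an SE no smaller than under TMM scaling. The test sets the spread of a gene in part from other genes, so this count cannot decide on the relative differences.

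Counts for 4 members were close to nil in all embryos. Rpl26 had 1, 0 and 0 counts in KO embryos and 0, 0 and 0 in controls, and was the member that did not pass the filter. Rps27 had 39, 34 and 34 counts in KO embryos and 27, 28 and 33 in controls. It was the single member with groups apart by CPM, KO above control, but almost tied, at 1.167 CPM in KO 3 against 1.166 CPM in control 3. Its log2 fold change was 0.36 ± 0.25, with an edgeR adjusted p of 0.434. Rpl30 had 72, 78 and 71 counts in KO embryos and 74, 78 and 63 in controls. Rpl34 had 73, 112 and 97 counts in KO embryos and 82, 127 and 72 in controls. Per 1000 bases of exon these 4 had at most 1.26 CPM, while the other 72 had between 70.3 and 1443 CPM per 1000 bases.

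Their sequence is given because a read that fits several places is not counted. From each, the coding stretch of 50 bases found in the most other genes is shown, on GENCODE M21 transcripts.
Rpl26, chromosome 11, coding bases 79 to 128: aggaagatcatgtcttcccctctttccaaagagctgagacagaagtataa
Rps27, chromosome 3, coding bases 161 to 210: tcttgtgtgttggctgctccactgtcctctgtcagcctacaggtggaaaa
Rpl30, chromosome 15, coding bases 280 to 329: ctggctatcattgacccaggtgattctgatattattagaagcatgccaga
Rpl34, chromosome 3, coding bases 26 to 75: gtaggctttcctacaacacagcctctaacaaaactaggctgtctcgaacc

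The Rpl26 stretch recurs in 6 other annotated genes, the Rps27 stretch in 5, the Rpl30 stretch in 13 and the Rpl34 stretch in 9. Over the whole transcript, 98.6% of the 50-base windows of Rps27 occur in another gene, 71.3% of those of Rpl26, 47.8% of those of Rpl30 and 37.9% of those of Rpl34. The median over the other 72 members was 48.8%, and 15 of them passed 80%. Rps2, at 71.3% as well, was among the highest members by CPM, and Rpl10 had 92.1%. Members of high level thus share as much as Rpl26, Rpl30 and Rpl34 do, and why their counts were close to nil was not tested. Reads that overlap more than 1 annotated feature go to the ambiguous row, which held 0.531%, 0.724% and 0.581% of all rows in KO embryos, against 0.591%, 0.653% and 0.572% in controls. The files do not say which genes those reads came from, so near-nil counts here do not show near-nil expression. The level of any member holds only the reads that tell it from its copies.

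The symbol rule leaves out 4 proteins of the ribosome, which with the 76 make 80, and 3 of them are given here, chosen after the files were seen. Rps3a1, a small subunit gene, had 951, 1544 and 1072 CPM in KO embryos, against 1220, 1427 and 1060 CPM in controls. Fau, which encodes a ubiquitin-like fusion with Rps30, was at a log2 fold change of 0.07, and Gnb2l1, the scaffold Rack1, at -0.03. Their order over the embryos was that of the family, with KO 2 highest and KO 1 lowest in each, and none was called.

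Paralogs with close copies in the family are reported with the same caution about shared reads. Rps27l, a p53-inducible relative of Rps27, had 65.2, 80.5 and 72.4 CPM in KO embryos, against 85.2, 105 and 71.5 CPM in controls, at -0.27 ± 0.14 and an edgeR adjusted p of 0.32. Rpl22l1, which Rpl22 holds down in mice, had 60.7, 89.3 and 72.4 CPM in KO embryos, against 83.0, 94.1 and 71.2 CPM in controls, at -0.16. Rpl7l1 was at -0.11, Rpl36al at -0.09 and Rps4y2 at -0.06. The pseudogene Rps15a-ps6 stood out by embryo and not by group. It had 27.7, 24.9 and 15.9 CPM in KO embryos, against 0.960, 44.6 and 17.0 CPM in control 1, 2 and 3, so that the extremes were both controls. The pseudogene Rps15a-ps4 had under 0.5 CPM in every embryo, and Rps19bp1, a nucleolar partner of Rps19 and no paralog, was at -0.11.

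Translation factors and other TOP genes had medians in the family's order within KO embryos and within controls. Their median against the control mean was -0.26, 0.22 and -0.145 in KO 1, 2 and 3, and -0.0040, 0.14 and -0.137 in control 1, 2 and 3. Across the groups KO 3 was thus just below control 3, while in the family it was above, at -0.128 against -0.191. The order within groups was not particular to this list, since other lists below shared it. Of 29 tested, 1 was called, against 1.51% of all tested genes, so that the count says nothing particular of the list. Of the 29, 8 had folds above 0 and 21 below 0, and the median was -0.05. The called gene was Eif4a2, a form of the helicase that opens messages for the ribosome, with 400, 420 and 470 CPM in KO embryos against 293, 323 and 317 CPM in controls. Every KO embryo was above every control, at a log2 fold change of 0.47 ± 0.09 and an edgeR adjusted p of 0.0363. The call was lost without KO 3 (0.159) and without control 1 (0.257), 2 (0.104) or 3 (0.0901), by the same test. Eif4a1, the main form of the same helicase, had 1210, 1447 and 1241 CPM in KO embryos, against 1511, 1674 and 1332 CPM in controls, at -0.21 with an edgeR adjusted p of 0.333. Cct4 was at -0.18 and Eef1d, part of the elongation factor complex, at -0.14.

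Genes for the mitochondrial ribosome and for ribosome assembly had medians nearer 0 in KO 2, but in the family's order within each group. The 76 mitochondrial ribosomal protein genes had a median of -0.19, 0.0050 and -0.14 in KO 1, 2 and 3, against 0.00, 0.14 and -0.15 in controls. Folds were below 0 for 65 and above 0 for 11, the median was -0.11, and edgeR called 0, with an unadjusted p below 0.05 for 4. Over all tested genes these shares were 1.51% and 19.2%. Those with the smallest p were Mrpl20 at -0.35, Mrpl18 at -0.30, Mrpl33 at -0.34 and Mrps26 at -0.26, and the smallest edgeR adjusted p was 0.119, that of Mrpl20. DESeq2 put Mrpl20 at an adjusted p of 0.0473. Mrpl20 had 40.9, 46.3 and 42.9 CPM in KO embryos, against 55.1, 61.9 and 49.4 CPM in controls, with no overlap.

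Over the 56 assembly genes the median fold was -0.03 on the log2 scale, with 22 folds above 0 and 34 below, 0 called by edgeR, against 1.51% of all tested genes, and 5 at an unadjusted p under 0.05, against 19.2%. Polr1a, the largest subunit of RNA polymerase I, had 128, 138 and 140 CPM in KO embryos, against 114, 117 and 121 CPM in controls, at 0.21 with an edgeR adjusted p of 0.161. Rrn3, an initiation factor of that polymerase, was at -0.17, Mybbp1a, a nucleolar protein, at 0.20, and Nhp2l1, which binds box C/D small nucleolar RNAs, at -0.27. None of these 4 passed the test.

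Gene length was set beside these lists, since some of them hold short genes. The median exonic length was 1830 bases for ribosomal protein genes, 2214 for mitochondrial ribosomal protein genes and 1291 for short respiratory chain genes. It was 3324 for translation factors and TOP genes, 3846 for assembly genes and 4407 over all tested genes. In KO 1, 2 and 3 the shortest 20% of the other tested genes had medians of -0.11, 0.02 and -0.11, against 0.0060, 0.06 and -0.06 in controls. For the longest 20% the medians were 0.09, -0.02 and 0.07 in KO embryos, against -0.0090, -0.04 and 0.06 in controls. The 35 short respiratory chain genes had -0.283, 0.02 and -0.277 in KO embryos, against 0.03, 0.12 and -0.14 in controls. Within each group both lists of short genes had the family's order, with KO 1 and KO 3 almost tied, and the longest genes had the reverse order. KO 1 and KO 3, in which reads outside genes were many, read alike in short genes, while the ribosomal proteins read lower in KO 1 than in KO 3. In KO 2 the ribosomal proteins were 0.33 above the control mean and the short genes 0.02. The part of length in the ribosomal protein levels was not tested.

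**Figure D4:**
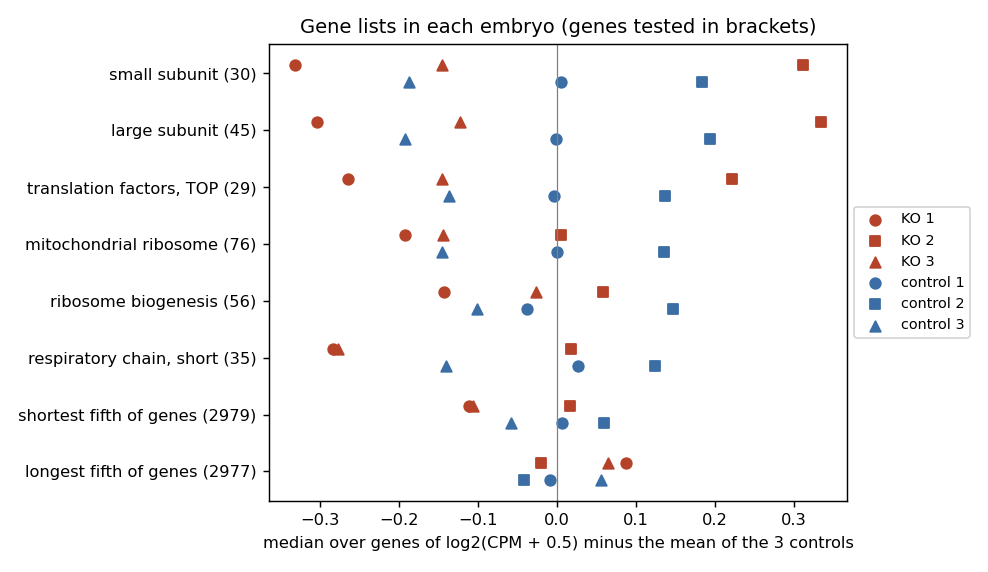
Each symbol is the median over a gene list of log2(CPM + 0.5) minus the mean of the 3 controls in 1 embryo, with KO embryos in red above control embryos in blue. KO 2 lies at 0.31 and 0.33 for the small and large subunit, at 0.22 for translation factors and TOP genes, and at 0.0050 for the mitochondrial ribosome.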

How the data were processed

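Whole embryos were sequenced with a stranded poly(A) kit, per the labels' protocols. The authors deposited whole-number read counts per gene symbol and per repeat name for each embryo, on mm9, with Trimmomatic, TopHat2, Bowtie2 and HTSeq in the submitters' processing notes. For versions, annotation and strand setting, nothing is given in the sources used here. Rows that name no gene, 29.5% to 39.8% of each file, stayed out of library sizes and tests. The repeat counts enter no comparison between groups here.

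Counts were fitted with edgeR 4.0.16 in R 4.3.3 (quasi-likelihood F test, robust, TMM, filterByExpr with a minimum count of 10 and total of 15), a model of group alone, all 6 libraries and Benjamini-Hochberg adjustment over 15075 genes. SE was taken as the size of the log2 fold change divided by the root of F. Levels are TMM-scaled CPM, and log2 levels use a pseudocount of 0.5 CPM. Tested on simulated data, the fit missed part of the changed genes, more of those with the smaller change, and the false share of its calls was above the nominal threshold. DESeq2 1.42.0 and limma-voom 3.58.1 were alternatives, with the scalings, filters and left-out libraries given in the closing section. Exonic lengths came from GENCODE M21 on GRCm38, matched by symbol for 14959 tested genes and all 76 members. Shared windows were counted on 1 principal transcript (APPRIS) of each member against the transcripts of every other gene, as spelled in the transcripts.

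Members and lists were chosen with earlier results of these data known. The 4 ribosome proteins outside the symbol rule, the scale relative to the median member and the level of 100 CPM were chosen after values were seen. Permutation tests were exact. A few genes that the rule names are not reported here. Genes named are 25 fixed members, the 5 uncalled members above 0 and the 5 below 0 with the smallest p, the 3 highest and 3 lowest in CPM, the tested paralogs, the 4 smallest p of each other ribosome list, and H3f3a, H3f3b and Rn45s. The file names of KO 2 and KO 3 share a code, and no KO embryo shares one with a control.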

Additional observations from a re-analysis of the deposited data

How the results depend on the processing

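Of 15075 tested genes 227 were called, and this count moved to 779 with DESeq2, 142 with at least 1 CPM in 3 libraries, 748 with reads outside genes as a covariate, 449 with KO 2 and KO 3 summed, 528 and 77 at an adjusted p under 0.10 and 0.01, and 132 with library sizes set to the family's sum, an alternative chosen after seeing the data, as was TMM without Rn45s. No ribosomal protein gene was called higher under any alternative but the covariate (6), or lower but without KO 2 (2). The covariate moved the family's median log2 fold change to 0.28 (small subunit 0.28, large subunit 0.3) and that of translation factors and TOP genes to 0.17. With single embryos left out, genes called ran between 60 and 1663, the family's median between -0.22 and 0.11, the small subunit's between -0.25 and 0.11, the large subunit's between -0.22 and 0.12, the family's summed log2 difference between -0.23 and 0.09, members called lower between 0 and 2 and higher between 0 and 0, and the difference in reads outside genes between 3.4 and 8.52 points. Medians ran between -0.18 and -0.03 for mitochondrial ribosomal proteins, between -0.2 and 0.02 for translation factors and between -0.09 and 0.05 for assembly genes. Of 693 values of named members under the alternatives, 142 changed sign around 0 and 5 changed call. Among other named genes, DESeq2 called Mrpl20, the fit without KO 2 called Mrpl20, Mrpl18, Mrpl33 and Nhp2l1, and the covariate called Fau. Eif4a2 was not called with totals that include reads outside genes (adjusted p = 0.064, edgeR), and with the family's sum neither Eif4a2 (0.536) nor H3f3b (0.386) was.

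Deviations from the group means in same-numbered embryos had correlations of -0.09, 0.18 and 0.26, and KO 3 alone correlated best with its own number. These values cannot settle whether same-numbered embryos were paired, which the labels do not state. With the replicate block 589 genes were called and 0 members, with a family median of -0.03. Only uniquely aligned reads were counted, which limits members with many copies.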
